A study of Mus musculus with 10 samples.

Results

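The cerebral cortex of Snx14-KO mice was compared with that of control mice at 1 year of age, gene by gene, to ask which differences went along with the amount of striatal tissue in a sample and which did not. The comparison used the 5 libraries labelled cortex out of 10 in the series, 3 from controls and 2 from KO mice. Controls 1 and 2 were heterozygous (Het), control 3 was wild type (WT), and the 3 were pooled because the labels name all of them as controls. The KO mice carried a frameshift deletion in both copies of Snx14, made with Cas9 in C57BL/6J embryos and backcrossed to C57BL/6J. The deletion was in the germline, so neurons, glia and vessels all lacked an intact copy, and each library was 1 mouse and 1 piece of frozen tissue that the labels describe as a mix of cells. The libraries held 16088310 to 20358716 counts in genes. Of 55536 gene entries 19202 had enough counts to be tested, and 17191 of these averaged at least 1 CPM (counts scaled to a common library total). By Xist and Y-linked genes, control 2 and KO 2 were the males of the set. The cortex label was checked with 10 markers of cortical excitatory neurons, which summed to between 1858 and 2628 CPM in every library. The 13 cerebellar markers summed to between 390.2 and 473 CPM. Calb1 and Rgs8, which forebrain neurons express as well, averaged 122 and 112 CPM of this. Pcp2 and Gabra6 averaged 4.63 and 0.22 CPM.

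Snx14 is a sorting nexin anchored in the endoplasmic reticulum, where it meets lipid droplets and takes part in fatty acid handling, and its loss in people causes a childhood cerebellar ataxia. The striatum lies directly beneath the cortex, separated from it by white matter. Its principal cells are GABAergic medium spiny neurons, which form a direct pathway that carries the dopamine receptor Drd1 and the peptide gene Tac1 and an indirect pathway that carries Drd2, the adenosine receptor Adora2a and the enkephalin precursor Penk. These genes are far weaker in most cortical neurons, so striatal tissue in a cortical sample would raise their level. Whether this applied to the samples here was not tested.

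Snx14 itself measured 33.1 and 33.8 CPM in Het cortex, 48.8 CPM in WT cortex, and 14.5 and 15.5 CPM in the KO mice. Both KO cortices therefore lay below every control. The log2 fold change of KO against control was -1.36 (SE 0.192). The quasi-likelihood F test of edgeR gave an unadjusted p of 0.000132 and an adjusted p of 0.754 over all genes tested, so the targeted gene did not pass, whereas it passed by DESeq2 at an adjusted p of 2.32e-06. When control 2 was left out, the edgeR difference was -1.45 (SE 0.159) and its adjusted p 0.00207. Snx14 lies on chromosome 9 from 88376750 to 88438958 (GRCm38, minus strand).

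Calls required both an adjusted p below 0.05 and a log2 fold change beyond 0.5 in either direction. The edgeR test called 0% of the 19202 genes in either direction, with a smallest adjusted p of 0.636. At an unadjusted p under 0.05 it found 507 genes higher in KO cortex (2.64% of genes tested) and 632 lower (3.29%). DESeq2, the tool of the study, called 48 genes, 3 higher (0.0152% of the 19752 genes to which it gave an adjusted p) and 45 lower (0.228%). Without control 2, edgeR called 98 genes, 20 higher (0.105%) and 78 lower (0.411%), and 40 genes were shared, 83.3% of the DESeq2 calls and 40.8% of the edgeR calls. At an unadjusted p under 0.05 that fit found 1016 genes higher (5.36%) and 1110 lower (5.85%). The values of single genes below are from the edgeR fit of all 5 libraries unless another is named, and none of them passed after adjustment in that fit.

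The striatal content of each sample was approximated by the transcripts of 4 genes: Penk, Drd1, Adora2a and Rgs9, a regulator of G protein signalling in spiny neurons. Penk measured 261, 632 and 248 CPM in controls 1 to 3, against 145 CPM in KO 1 and 47.9 CPM in KO 2. Rgs9 measured 93.7, 244 and 89.7 CPM in the controls, against 46.3 and 24.1 CPM in KO cortex. Adora2a went from 78.9, 192 and 56.8 CPM to 33.3 and 10.6 CPM, and Drd1 from 38.6, 99.5 and 43.7 CPM to 24.7 and 13.4 CPM. For each of the 4 genes control 2 was the highest library, KO 2 the lowest, and both KO mice were below all controls. The striatal index, the mean log2 CPM of these 4 genes, stood at 6.54, 7.86 and 6.43 for the controls in order, and at 5.60 for KO 1 and 4.34 for KO 2. The means were 6.95 ± 0.798 (SD, n = 3) and 4.97 ± 0.895 (SD, n = 2), a difference of -1.97 log2 units. Control 2 exceeded the mean of controls 1 and 3 by 1.38, and KO 1 exceeded KO 2 by 1.27. Each genotype class thus held libraries that differed by more than 1 log2 unit in the index. Against controls 1 and 3 alone the KO mice were lower by -1.52. In bulk tissue, fewer spiny neurons in a sample and less of these transcripts per spiny neuron cannot be told apart, and how much striatum each dissection took was not recorded in the sources used here.

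**Figure D1:**
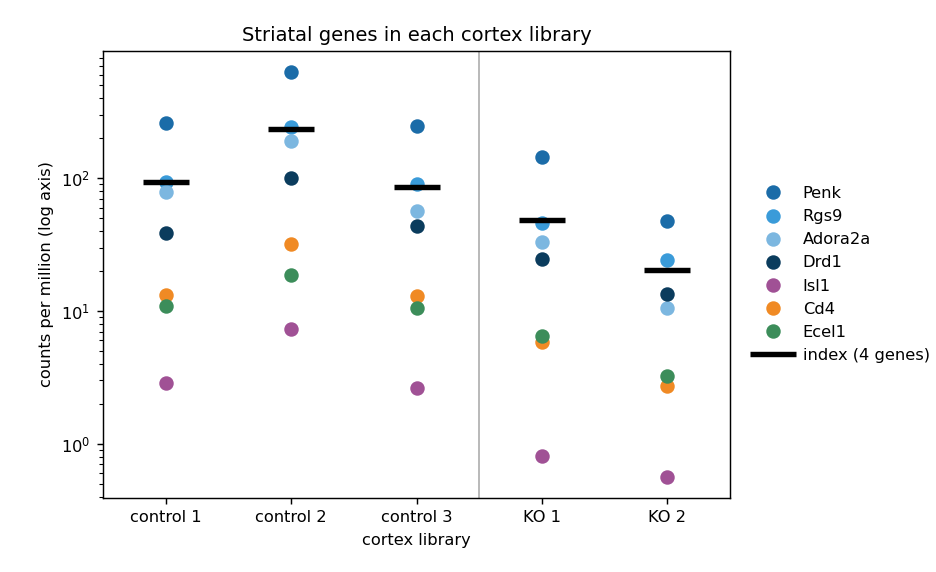
Level of the 4 index genes and of Isl1, Cd4 and Ecel1 in each cortex library, in CPM on a log axis, with the black bar at the 4-gene index. All 7 genes were highest in control 2 and lower in both KO libraries than in any control.

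The lower level extended over most marker genes of spiny neurons. Of 30 genes that both pathways share, 30 were lower in KO cortex and 27 of them had an unadjusted p under 0.05, against 3.29% of all genes tested, with a median log2 fold change of -1.17. Cd4, which mouse spiny neurons express, was at 13.2, 31.8 and 12.9 CPM in controls and 5.89 and 2.73 CPM in KO mice (log2 fold change -2.15, SE 0.499). Meis2, a homeobox factor of striatal neurons, differed by -0.79 (SE 0.177). Among 8 direct pathway genes 6 were lower, 5 of them at an unadjusted p under 0.05. Isl1, a LIM homeobox factor that specifies direct pathway neurons, was at 2.89, 7.35 and 2.65 CPM in controls and 0.811 and 0.559 CPM in KO mice, a log2 fold change of -2.64 (SE 0.572, DESeq2 adjusted p 0.00592). The orphan transporter Slc35d3 differed by -2.40 (SE 0.506), Ebf1 by -1.12 (SE 0.33) and Tac1 by -1.45 (SE 0.436). Among 7 indirect pathway genes 6 were lower, 4 at an unadjusted p under 0.05. Drd2 was at 45.9, 123 and 41.7 CPM in controls and 22.9 and 7.71 CPM in KO mice (-2.19, SE 0.598), the orphan receptor Gpr6 differed by -2.10 (SE 0.614), and the serotonin receptor Htr1b by -1.29 (SE 0.289).

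Cholinergic interneurons are a second, sparse cell type of the striatum, and their genes were lower in the same libraries. Of 8 markers 7 were lower in KO cortex, all 7 at an unadjusted p under 0.05, with a median of -1.76. Ecel1, a membrane peptidase, was at 10.9, 18.7 and 10.6 CPM in controls and 6.43 and 3.23 CPM in KO mice (-1.46, SE 0.36). The choline transporter Slc5a7 differed by -2.08 (SE 0.624). Without control 2 the medians of the shared, direct, indirect and cholinergic lists were -0.82, -0.63, -0.94 and -1.25. Taking all 57 tested genes of these lists together with the 4 index genes, 53 were lower in KO cortex, and in 50 both KO mice lay below all 3 controls, which was the case for 12.6% of all genes tested.

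To keep apart the genes that follow the striatal index, the slope of each gene's log2 CPM on it was taken within controls and within KO mice. Group means were removed, so that the KO difference itself was not an input to the slope. The slope and the difference still share libraries. A gene raised in control 2 alone gets both a higher slope and a higher control mean, so the classes are not independent of the KO difference. A slope of 1 means that a gene doubled when the index rose by 1 log2 unit. Genes with a slope of at least 0.5 that was positive in both groups were said to follow the index. Genes with a slope of at least 0.25 that did not meet this partly followed it, those at or below -0.25 were opposite, and the rest did not follow. The partly following and opposite classes did not require the same sign in both groups. Of the 17191 genes of at least 1 CPM, 203 followed, 1043 partly followed, 1404 were opposite and 14541 did not follow. The slopes rest on 5 libraries and mainly on control 2 against the other controls and KO 1 against KO 2, so they sort genes and are not tests. Control 2 and KO 2 were the males, so within each group these contrasts also set male against female. The male had the highest index among the controls and the lower one between the KO mice.

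Genes that followed the index were lower in KO cortex with a low p-value more often than genes at large, by a margin that depended on single libraries. Among the 203 followers 91 were lower in KO cortex at an unadjusted p under 0.05 (44.8%, against 3.41% of all genes of at least 1 CPM) and 3 were higher (1.48%, against 2.68%). Both KO mice lay below all controls for 96 of them, 47.3% against 12.96% of all genes of at least 1 CPM, and the median log2 fold change was -0.84. The 4 index genes are among them. The slopes and the test were also both taken without control 2. Then 18.7% of the followers were lower at that level, against 5.85% of all genes tested in that fit, and their median was -0.15. Without KO 1 and without KO 2, fits that keep 1 KO mouse each, the follower medians were -0.32 and -0.42. For the same 203 genes the median without control 2 was -0.42. Among the 1043 genes that partly followed, 121 were lower (11.6%) and 14 higher (1.34%) at that level, with a median of -0.16 that turned to 0.059 without control 2. Of the 1404 opposite genes 39 were higher (2.78%), close to the share over all genes, and 4 lower (0.285%). Their median of 0.16 turned to -0.052 without control 2. For the 14541 genes that did not follow, 370 were lower (2.54%) and 404 higher (2.78%), close to the shares over all genes, and the median was -0.005. Both KO mice lay above all controls for 12.9% of these genes, against 12.05% over all genes of at least 1 CPM.

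**Figure D2:**
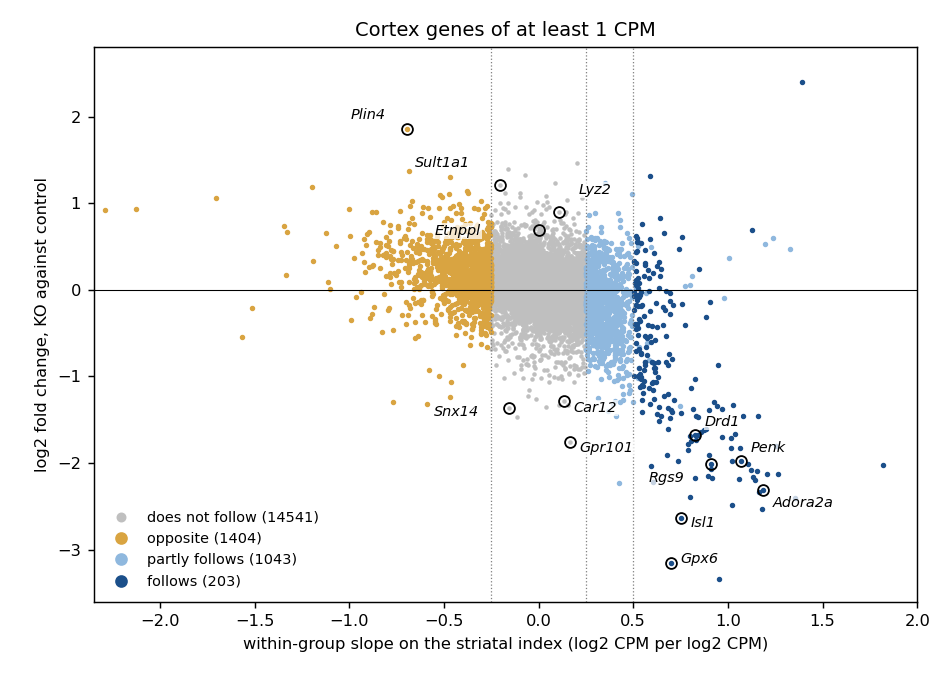
Within-group slope on the striatal index (log2 CPM per log2 CPM) against the log2 fold change of KO against control for genes of at least 1 CPM, coloured by class, with dotted lines at the class limits and 5 genes outside the axes. Followers extend down to the lower right with the index genes Penk, Rgs9, Adora2a and Drd1, while Snx14, Car12, Gpr101, Etnppl and Lyz2 stand away from 0 on the vertical axis at slopes near 0.

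The striatal lists held 33 of the 203 followers, 29 besides the 4 index genes, which follow their own mean by construction. Others with low p-values were Gpx6, a glutathione peroxidase, which was at 1.62, 3.82 and 1.59 CPM in controls and 0.324 and 0.186 CPM in KO mice (-3.16, SE 0.618), and Musk, the muscle-specific kinase (-2.03, SE 0.462). One follower, the repeat-rich predicted gene Gm10800, was higher in both KO mice than in all controls (1.32, SE 0.444), at 0.353 to 2.11 CPM. Taken separately in each group, 86 genes had a slope of at least 0.5 both among the controls and between the KO mice. Of these 86, 76 were lower in KO cortex, 58 of them with no overlap between the groups (12.96% of all genes of at least 1 CPM), and their median was -1.45. This stricter rule was added after the data were seen.

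The 48 genes called by DESeq2 were not divided over the classes by class size. Of them 10, all lower, followed the index, a class with 1.18% of the genes of at least 1 CPM. Another 14, all lower, partly followed, a class with 6.07% of these genes. The remaining 24 did not follow, 21 of them lower and 3 higher, in a class with 84.6%. None was in the opposite class, which held 8.17%. Adding the index as a term to the edgeR fit gives each gene its KO difference at equal index. In that fit 0% of genes were called in either direction, the smallest adjusted p was 0.996, and 302 higher genes (1.57%) and 353 lower ones (1.84%) had an unadjusted p under 0.05, the index genes included. Of the 48 genes 41 moved closer to 0 and 13 kept an unadjusted p under 0.05. Of the 45 lower genes 17 kept more than 50% of their log2 fold change. The index was lower in both KO mice than in all controls, so the fit has few libraries with which to separate the terms, and the difference for a follower at equal index is set largely by the slope that defined it.

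**Figure D3:**
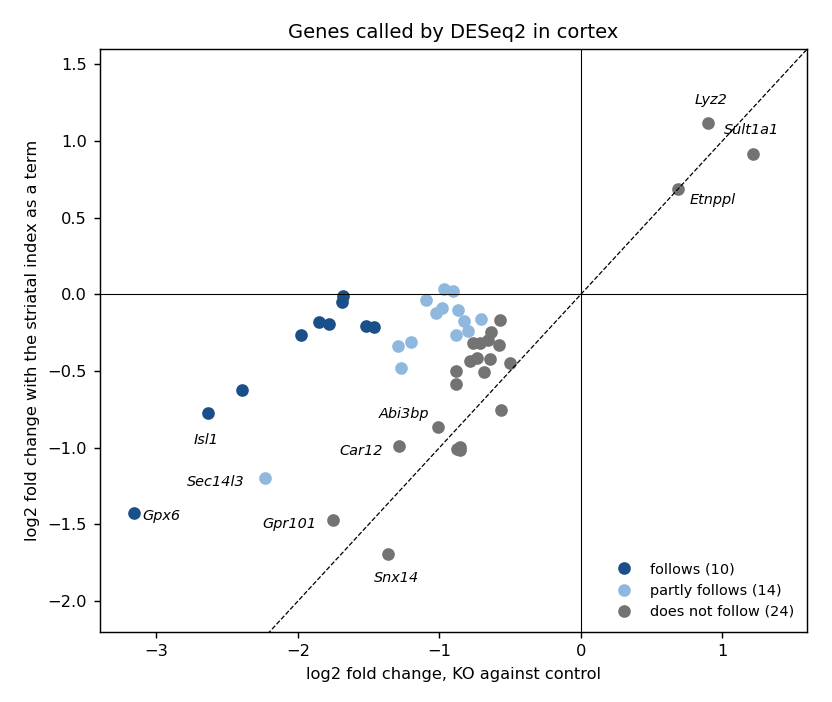
The 48 genes called by DESeq2, with the log2 fold change of KO against control on the horizontal axis and the same with the striatal index as a term on the vertical axis, coloured by class. The dashed line marks equal values. Followers such as Isl1 move most towards 0, while Etnppl lies on the line and Snx14, Car12 and Abi3bp stay near it.

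Synaptic vesicle genes illustrate the partial cases. Doc2b, a calcium sensor for spontaneous transmitter release, was at 27.9, 42.9 and 27.6 CPM in controls and 17.0 and 11.6 CPM in KO mice, a log2 fold change of -1.20 (SE 0.2501). Its slope on the index was 0.45, nearly the same among controls (0.45) and between the KO mice (0.43), and with the index as a term the difference was -0.31 (SE 0.213). Sv2c, the vesicle glycoprotein that is abundant in the basal ganglia, was at 53.8, 84.0 and 57.0 CPM in controls and 40.1 and 31.0 CPM in KO mice. It differed by -0.87 (SE 0.212), had a slope of 0.38, and differed by -0.10 (SE 0.174) with the index as a term. On a linear scale, the within-group slope carried over the difference in index amounted to 60.2% of the observed CPM difference of Doc2b and 70.9% of that of Sv2c. Both genes thus varied with the striatal index inside each genotype class. Whether this reflects striatal content was not tested, nor was how much of the KO difference remains beside the index, beyond these fits.

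Other transmitter release and GABA genes followed the index less. Unc13c, a priming factor of synaptic vesicles, was at 53.4, 75.3 and 61.7 CPM in controls and 36.8 and 37.1 CPM in KO mice (-0.78, SE 0.147). Its slope was 0.27 among controls but -0.01 between the KO mice. Slc32a1, the vesicular GABA transporter, of whose exonic bases 24.9% lie in another gene, was at 106, 130 and 94.9 CPM in controls and 72.5 and 69.8 CPM in KO mice (-0.64, SE 0.138, slope 0.19). The GABA-synthesising enzyme Gad2 differed by -0.35 (SE 0.0957) and Gad1 by -0.26 (SE 0.112), and the interneuron peptide Sst by -0.30 (SE 0.103). For all 5 genes both KO mice lay below all 3 controls, as they did for 12.6% of all genes tested. Spiny neurons are GABAergic too, and among 22 genes of cortical interneurons only Slc32a1, Gad2 and Sst had an unadjusted p under 0.05 on the lower side, 15 of the 22 were higher, and the median was 0.09. Without control 2, 9 were higher and 13 lower, and the median turned to -0.061. Of 37 synaptic vesicle genes tested, 6 were lower and 1 higher at an unadjusted p under 0.05, against 3.29% and 2.64% of all genes tested, with a median of -0.01. Without control 2, 30 of the 37 were lower, 11 at that level against 5.85% of all genes, and the median was -0.10. The calcium-binding protein gene Necab2, in the partly following class, differed by -1.02 (SE 0.247), and the metabotropic glutamate receptor Grm4, which did not follow, by -0.73 (SE 0.157).

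Among the genes that did not follow the index, the lower ones with the smallest p-values besides Snx14 were Car12, Abi3bp and Gpr101. Car12, a membrane-bound carbonic anhydrase (chromosome 9, 66713686 to 66766845), was at 19.2, 24.7 and 19.5 CPM in controls and 8.43 and 8.89 CPM in KO mice. Both KO values were under 9 CPM although KO 1 and KO 2 differed in striatal index. Among the controls, Car12 was highest in control 2, which also had the highest index. The log2 fold change was -1.29 (SE 0.165, unadjusted p 6.62e-05, DESeq2 adjusted p 2.38e-06). With the index as a term Car12 differed by -0.99 (SE 0.282). Abi3bp, an extracellular matrix protein (chromosome 16, 56477878 to 56690135), was at 11.0, 11.7 and 11.7 CPM in controls and 6.11 and 5.28 CPM in KO mice (-1.01, SE 0.154), and at -0.86 (SE 0.287) with the index. The controls of Abi3bp were within 1 CPM of each other, although control 2 had the highest index. Gpr101, an orphan receptor on the X chromosome, was at 2.60, 2.89 and 2.71 CPM in controls and 0.919 and 0.684 CPM in KO mice (-1.75, SE 0.279).

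Next came Zcchc12, a zinc finger coactivator, which was at 48.6, 55.0 and 49.7 CPM in controls and 34.2 and 31.4 CPM in KO mice (-0.64, SE 0.102), and Cpne5, a calcium-dependent membrane-binding copine, at 120.1, 125 and 115 CPM in controls and 83.3 and 86.1 CPM in KO mice (-0.50, SE 0.0859). The slope of Cpne5 was 0.03. Lmo3, Dgkb and Dclk3 differed by -0.58 (SE 0.105), -0.71 (SE 0.131) and -0.65 (SE 0.122), with slopes of 0.12, 0.20 and 0.18. Dgkb, a diacylglycerol kinase, and Dclk3, a doublecortin-like kinase, are strong in striatum and belong to the shared spiny neuron list, so a slope under 0.25 did not mark a gene as absent from striatum. On the linear scale the slope amounted to 40.5% of the observed difference of Dgkb, 39.5% of that of Dclk3 and 35.5% of that of Lmo3, against 14.2% for Cpne5, 5.17% for Abi3bp and -23.2% for Snx14. Car12 stood between them at 29.5%.

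The genes that were higher and did not follow the index were led by Etnppl. Etnppl, the astrocytic lyase that breaks down phosphoethanolamine, a precursor of phosphatidylethanolamine (chromosome 3, 130617448 to 130637521), was at 34.4, 33.8 and 33.5 CPM in controls and 54.7 and 54.6 CPM in KO mice. The libraries of each group were within 1 CPM of each other, and the log2 fold change of 0.69 (SE 0.0848, unadjusted p 5.12e-05, DESeq2 adjusted p 0.000686) was the same, 0.69 (SE 0.167), with the index as a term. Lyz2, the lysozyme of microglia and macrophages, was at 7.97, 8.42 and 7.30 CPM in controls and 15.5 and 14.0 CPM in KO mice (0.90, SE 0.144, DESeq2 adjusted p 0.0100). Sult1a1, a sulfotransferase, was at 8.55, 4.85 and 7.54 CPM in controls and 18.2 and 14.1 CPM in KO mice (1.22, SE 0.244, DESeq2 adjusted p 0.0100). Etnppl, Lyz2 and Sult1a1 were the 3 higher calls of DESeq2. Among controls Sult1a1 was lowest in control 2, which had the highest index, but it was higher in KO 1 than in KO 2, which had the lower index. Its slopes among controls and between the KO mice thus had opposite signs, and the combined slope was -0.20.

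Other genes were higher with little spread within each group. The metallothionein Mt2 was at 58.7, 60.0 and 60.4 CPM in controls and 83.4 and 82.8 CPM in KO mice (0.48, SE 0.079). The predicted gene Gm45774 had nearly the same values, but 73.5% of the exonic bases of Mt2 lie in another gene on the opposite strand and strand was not counted, so the pair is 1 measurement. Tsc22d3, the glucocorticoid-induced leucine zipper protein, was at 74.7, 80.4 and 72.9 CPM in controls and 108 and 102 CPM in KO mice (0.47, SE 0.0873), and the amino acid transporter Slc38a2 at 116, 107 and 120.0 CPM and then 173 and 149 CPM (0.49, SE 0.101). Itprid2 differed by 0.45 (SE 0.0834), the heparan sulfate proteoglycan Sdc4 by 0.49 (SE 0.0927) and Ctla2a by 1.01 (SE 0.196). Both KO mice lay above all 3 controls for each of these genes because they were picked by that pattern and a small p-value. It held for 12.9% of the genes that did not follow.

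**Figure D4:**
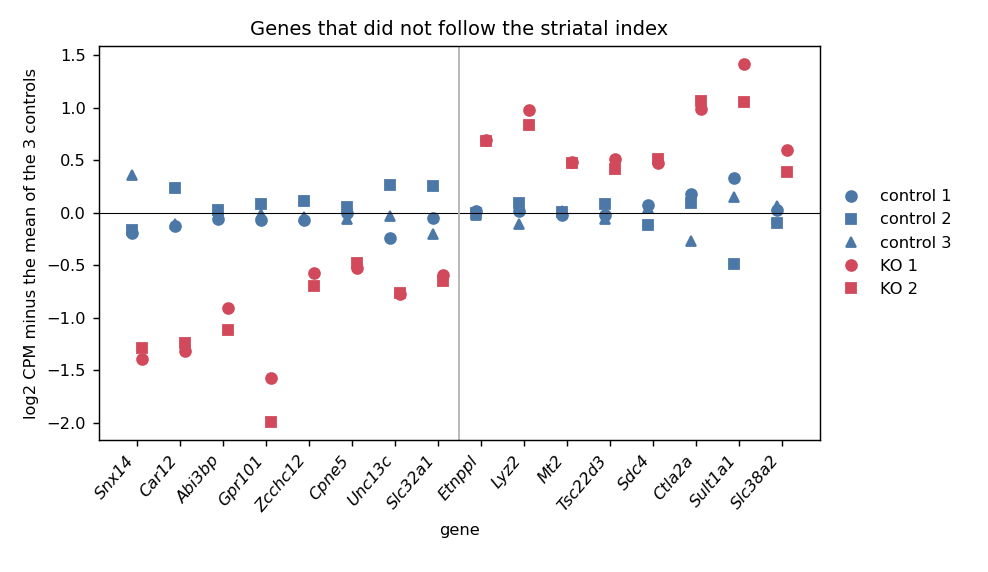
log2 CPM of 16 genes that did not follow the striatal index, minus the mean of the 3 controls of that gene, for each library (circles, squares and triangles mark replicates, blue control and red KO). The 8 genes on the left were lower in both KO mice than in any control and the 8 on the right higher. Most of these genes were picked by that pattern. For Etnppl and Mt2 the KO points nearly coincide.

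A further set of lower calls came from ribosomal RNA-like entries. CT010467.1, Gm42418 and AY036118 overlap each other on chromosome 17, and 73.9% to 100% of their exonic bases lie in another gene, so they count the same reads. CT010467.1 was at 4606, 3282 and 3014 CPM in controls and 2004 and 2019 CPM in KO mice (-0.85, SE 0.189). The small RNA entry Gm23935 differed by -0.88 (SE 0.223). Lars2, the mitochondrial leucyl-tRNA synthetase, was at 460, 402 and 486 CPM in controls and 307 and 300.5 CPM in KO mice (-0.57, SE 0.113). Slopes on the index were between -0.10 and 0.17.

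Control 2 stood apart in more than its striatal genes. Its 12 markers of upper cortical layers summed to 398 CPM, against 772 and 827 CPM in controls 1 and 3 and 803 and 829 CPM in the KO mice. Its 14 oligodendrocyte markers summed to 9126 CPM, against 4921 and 5004 CPM in the other controls and 5453 and 5348 CPM in the KO mice, and its 15 deep-layer markers to 1480 CPM, against 768 to 875 CPM elsewhere. Control 2 therefore held more oligodendrocyte, deep-layer and striatal transcripts and fewer upper-layer ones than any other library. KO 1 and KO 2, by contrast, differed by 1.27 log2 units in striatal index but had nearly equal oligodendrocyte and upper-layer sums. All 14 oligodendrocyte markers fell in the partly following class, and 11 of the 12 upper-layer markers in the opposite class. Those classes therefore also hold genes that set control 2 apart, and membership does not mark a gene as striatal.

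These lists changed with control 2 while the striatal lists kept their direction. All 14 oligodendrocyte markers were lower in KO cortex with all libraries, with a median of -0.40, and without control 2 the median was -0.01. With all libraries 1 had an unadjusted p under 0.05, against 3.29% of all genes tested on the lower side. Without control 2, 7 of the 14 were higher and 7 lower. Opalin, a myelin protein and the marker with the smallest p-value, was at 14.7, 35.6 and 15.2 CPM in controls and 11.5 and 12 CPM in KO mice. Both KO mice lay below all controls for 3 of the 14 markers (21.4%, against 12.6% of all genes tested), so Opalin was not typical of the list. Of 12 upper-layer markers 11 were higher, with a median of 0.35, and 0.07 without control 2. With all libraries 1 was higher and 1 lower at an unadjusted p under 0.05, against 2.64% and 3.29% of all genes tested. Rorb, a layer 4 factor, differed by 0.38 (SE 0.162) and Cdh13 by -0.42 (SE 0.111). Of 15 deep-layer markers 11 were lower (median -0.25, and -0.05 without control 2), among them Syt6 (-1.10, SE 0.305) and Pcp4 (-0.84, SE 0.352), a calmodulin regulator that spiny neurons express as well. Of 10 excitatory neuron markers 9 were higher, with a median of 0.18 and 0.03 without control 2, and 0 had an unadjusted p under 0.05. Neurod2, a neuronal differentiation factor, differed by 0.24 (SE 0.107) and Tbr1 by 0.17 (SE 0.0842).

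**Figure D5:**
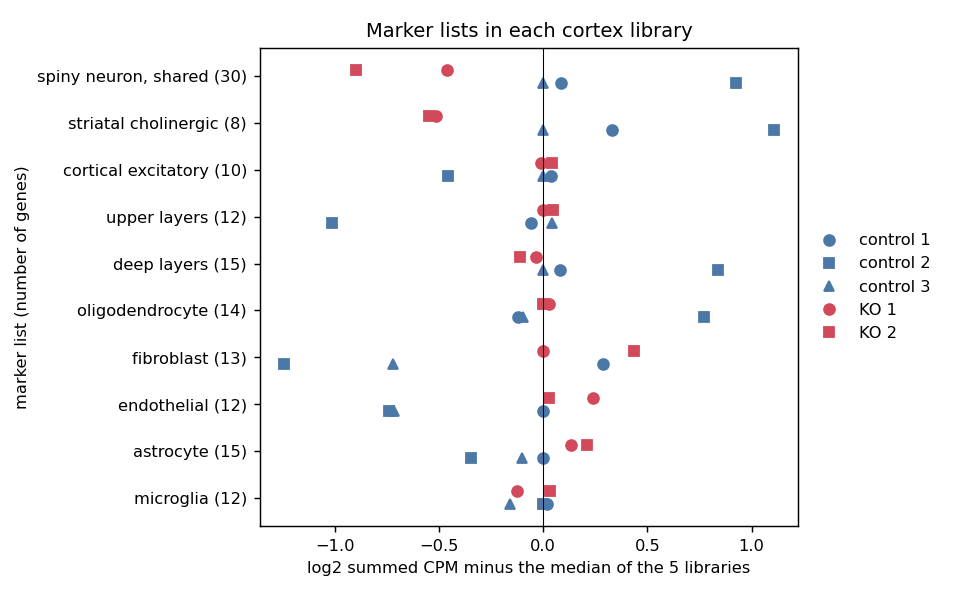
log2 summed CPM of 10 marker lists in each cortex library, minus the median of the 5 libraries, with the number of genes of each list in brackets. Control 2 is the outer point for every list except microglia, by a small margin for the endothelial list. Both KO libraries lie below all controls for the spiny neuron, cholinergic and deep-layer lists. They lie above all controls for the astrocyte and endothelial lists.

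Astrocyte genes were higher in KO cortex whether or not control 2 was included. The 15 markers summed to 7791, 6126 and 7257 CPM in controls and 8543 and 9001 CPM in KO mice. Of the 15, 14 were higher, 8 at an unadjusted p under 0.05 against 2.64% of all genes tested, and both KO mice lay above all controls for 11, against 11.9% of all genes tested. The median was 0.28, and 0.24 without control 2. Gfap, the intermediate filament of astrocytes, was at 152, 112 and 127 CPM in controls and 188 and 175 CPM in KO mice (0.48, SE 0.132), the gap junction gene Gja1 differed by 0.33 (SE 0.0975) and the growth factor receptor Fgfr3 by 0.52 (SE 0.163). Among 11 reactive astrocyte genes 8 were higher, 2 at that level, with a median of 0.20.

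Vessel markers were also higher, with wide spread among the controls. All 12 endothelial genes were higher (median 0.53, and 0.46 without control 2), 4 at an unadjusted p under 0.05, against 2.64% of all genes tested. These were Mfsd2a, the transporter of docosahexaenoic acid across the blood-brain barrier (1.03, SE 0.269), the glucose transporter Slc2a1 (0.54, SE 0.172), Pecam1 (0.68, SE 0.275) and Ly6c1 (0.57, SE 0.231). The 12 genes summed to 268, 161 and 163 CPM in controls and 317 and 274 CPM in KO mice, so control 1 was near the KO mice. All 13 fibroblast genes were higher (median 0.65, and 0.28 without control 2), 2 at that level, among them Mgp (0.77, SE 0.259), but their sums of 126, 43.5 and 62.4 CPM in controls and 103 and 139 CPM in KO mice overlapped. Of 9 mural cell genes 8 were higher, 1 at that level, the pericyte channel subunit Abcc9 (0.76, SE 0.167). Of 9 genes of oligodendrocyte precursors 7 were higher, 2 at that level (median 0.31). Thalamic, hippocampal and choroid plexus markers, which would enter with neighbouring tissue, had 1, 1 and 0 genes higher and 0, 1 and 0 lower at that level of 9, 11 and 8 tested, and the 5 blood genes had 0.

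Microglial genes were about evenly split with all libraries. Of 12 homeostatic markers 6 were higher and 6 lower (median -0.005), with Fcrls at 0.37 (SE 0.133). Of 17 genes of reactive microglia 7 were higher and 10 lower (median -0.01). At an unadjusted p under 0.05, 2 of these were higher and 1 lower, against 2.64% and 3.29% of all genes tested. Without control 2, 13 of the 17 reactive genes were higher, 4 at that level against 5.36% of all genes, and their median was 0.093. Of 16 immediate early genes 14 were higher, 2 at that level (Klf4 at 1.23, SE 0.457, and Fosl2 at 0.34, SE 0.126). Their median was 0.33, and 0.16 without control 3. Without control 2 it was 0.80, with 13 genes higher and 1 lower at that level, against 5.36% and 5.85% of all genes. The sums were 1072, 1385 and 728 CPM in controls and 1279 and 1332 CPM in KO mice. Control 2 had the highest and control 3 the lowest immediate early sum.

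Lipid gene lists had medians near 0 with all libraries. Of 15 genes of phosphatidylethanolamine metabolism 2 were higher at an unadjusted p under 0.05, against 2.64% of all genes tested. The 2 genes were Etnppl, which removes a precursor rather than making the lipid, and the acyltransferase Mboat2 (0.21, SE 0.0902). The median of the 15 was 0.06, and it was -0.0079 without KO 2. Of 16 genes of fatty acid desaturation and elongation 3 were higher, Fads2 (0.26, SE 0.093), Fads1 (0.25, SE 0.107) and Elovl2 (0.30, SE 0.129), with a median of 0.07. Of 18 sphingomyelin genes Sgms1, a sphingomyelin synthase, was higher (0.36, SE 0.142), 2 including the phosphodiesterase Smpdl3b (-0.73, SE 0.226) were lower, and the median was 0.01. Of 20 cholesterol synthesis genes 18 were higher, with a median of 0.10. Without control 2 all 20 were higher, 6 at that level against 5.36% of all genes, with a median of 0.15, while the median was 0.19 without KO 1 and 0.038 without KO 2. Of 22 lysosomal genes 16 were higher, 1 at that level, Mcoln1 (0.23, SE 0.0823), with a median of 0.05, and of 15 genes of endoplasmic reticulum stress 0 reached it. The 3 relatives of Snx14 in the same family differed by a median of -0.14, with 0 at that level.

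Among 16 lipid droplet genes the median was 0.03, and -0.068 without control 3. At an unadjusted p under 0.05, 2 were higher and 1 lower, against 2.64% and 3.29% of all genes tested. Plin4, a lipid droplet coat protein, was at 7.45, 2.50 and 14.7 CPM in controls and 36.7 and 21.9 CPM in KO mice, a log2 fold change of 1.85 (SE 0.562). Both KO values were above all controls, but the controls differed widely among themselves, with control 2 lowest, and the slope on the index was -1.50 among controls and 0.59 between the KO mice. The lipase Pnpla2 differed by 0.41 (SE 0.169). Plin4 and Mfsd2a were among the opposite genes, and of the opposite genes that were lower the first was Pappa2, a protease of IGF-binding proteins (-1.24, SE 0.38), at 0.865 to 3.24 CPM.

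Receptor and peptide lists held lower genes, many of them striatal. Of 27 monoamine and acetylcholine receptor genes 8 were lower and 0 higher at an unadjusted p under 0.05, against 3.29% and 2.64% of all genes tested. Of 24 neuropeptides and receptors 8 were lower and 0 higher, and both lists contain index or spiny neuron genes. Without control 2, 21 of the 27 were lower against 15 with all libraries, and the neuropeptide median went from 0.0089 to -0.15. Tacr1, the substance P receptor, was at 6.53, 13.8 and 5.83 CPM in controls and 3.57 and 1.80 CPM in KO mice (-1.69, SE 0.456, slope 0.80), and the peptide gene Nts differed by -1.40 (SE 0.416). Genes used as Purkinje cell markers are expressed in forebrain neurons as well: Rgs8 was at 121, 130 and 124 CPM in controls and 94.2 and 88.8 CPM in KO mice (-0.45, SE 0.086, slope 0.06), and Calb1 differed by -0.33 (SE 0.125). Other DESeq2 calls among the genes that partly followed or did not follow included Sec14l3, a lipid transfer protein (-2.23, SE 0.386), Crym, a thyroid hormone-binding protein (-0.69, SE 0.139), and Vat1l (-0.76, SE 0.144). With the index as a term they differed by -1.20, -0.50 and -0.32.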

How the data were processed

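Cortex RNA-seq libraries of 5 mice were analysed, 3 controls and 2 Snx14-KO. The authors aligned reads to GRCm38 with STAR, counted reads per gene with featureCounts (Subread 2.0.1) without using strand, and deposited the whole-number counts. Entries that were not mouse genes, 0.449% to 0.926% of counts, were left out. Genes were kept by the filter of edgeR 4.0.16 (minimum count 10), scaled by TMM and tested with the quasi-likelihood F test (limma 3.58.1, R 4.3.3), KO or control being the one factor, and Benjamini-Hochberg adjustment. DESeq2 1.42.0, no filter, the replicate number as a block, a striatal index term, a second index from other striatal genes and leaving out each mouse were alternatives. Log2 CPM used a prior count of 2. The code was tested on simulated data. Cortex members and gene lists were chosen with earlier results of these data known. Named genes were Snx14, the index genes, genes of the cortex in the study text, the lower and higher genes with the smallest unadjusted p and no overlap in the following, not following and opposite classes, up to 4 genes of each list by p, and DESeq2 calls. Counting without strand cannot separate overlapping or antisense genes. Each library is 1 mouse, and its total count limits precision for low genes. Added after the data were seen were DESeq2 without control 2, list medians without each library, the second index as a term, the linear-scale share and the rule on slopes in each group.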

Additional observations from a re-analysis of the deposited data

How the results depend on the processing

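The cortex comparison had few calls and depended on control 2. Against 0 calls in the edgeR fit, DESeq2 gave 48, DESeq2 without control 2 (added) 65, and edgeR with no filter on low counts 380. Leaving out 1 mouse at a time gave 0 to 98 calls, 98 without control 2 and 7 without KO 2. Genes higher at an unadjusted p under 0.05 numbered 1104 with no filter, 302 with the striatal index as a term and 141 to 1016 over the left-out mice, with the lowest without KO 1. Genes lower numbered 1058, 353 and 191 to 1110, with the lowest without KO 2. The highest counts were without control 2. The log2 fold change of Snx14 passed at -1.36 by DESeq2 and with no filter, and at -1.45 without control 2 by either tool. Among the left-out mice it ranged from -1.46 to -1.16.

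Followers numbered 361 with the second index genes, 64 at a slope of 0.75, 75 at a minimum of 5 CPM, 86 with a slope of at least 0.5 in each group (added), and 207 to 575 over the left-out mice, with 575 without KO 1 and 575 without KO 2. Without control 2, 283 genes followed, 81 of them shared with the 203. Followers lower at an unadjusted p under 0.05, 91 in the report, numbered 0 with the index as a term, 1 with the second index as a term (added), 55 by DESeq2 without control 2, 49 at a slope of 0.75, 54 at 5 CPM, 58 by the rule in each group and 32 to 108 over the left-out mice, 53 without control 2 and 32 without KO 2. Their median log2 fold change, -0.84 in the report, was -1.72 at a slope of 0.75, -1.45 by the rule in each group and -0.87 to -0.15 over the left-out mice, -0.15 without control 2 and -0.32 without KO 1.

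An index term reverses the sign of genes that vary with the index more steeply than they differ between the groups, by its construction. The follower median was 0.53 with the index and 0.50 with the second index. Penk was 0.073, Drd1 0.043 and Drd2 0.034 with the index. With the index and the second index Tac1 was 0.24 and 0.18, Gpr6 0.18 and 0.088, Slc5a7 0.18 and 0.11, Opalin 0.36 and 0.39, Pcp4 0.43 and 0.45, and Rorb -0.19 and -0.18.

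Replicate numbers name different mice and do not pair them. A replicate block gave 3 calls, all higher, with a smallest adjusted p of 0.00567 by edgeR. Across genes the difference of control 1 and control 2 correlated with that of KO 1 and KO 2 at 0.193, and at 0.103 without Xist and 4 Y-linked genes. Control 2 and KO 2 were both male. Depth limits genes near 1 CPM.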
